A study of Mus musculus with 6 samples.

Results

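Pools of 10 growing oocytes per sample were sequenced from WT and Pabpn1-null mouse ovaries. The question asked here of these data was how transcripts for meiotic chromosome structure fared in growing oocytes that lack PABPN1, the nuclear poly(A)-binding protein. Of the 23235 gene symbols in the table, 10 were examined, chosen by name and not by level: Smc1b, Rec8, Stag3 and Sgol2 of the cohesin group, and Hormad1, Sycp2, Sycp3, Sycp1, Syce1 and Syce2 of the chromosome axis and synaptonemal complex. All 10 had a row. The 6 samples were 3 of WT and 3 of Pabpn1 fl/fl;Gdf9-Cre growing oocytes on a C57BL/6 background (C57BL/6J in the methods), the knockout carrying floxed Pabpn1 alleles and a Cre recombinase driven by the Gdf9 promoter, which acts in oocytes from the primordial follicle stage. Controls were littermates, and neither the age at collection nor whether WT mice carried floxed alleles or Cre is given for these samples in the sources used here. The methods call the samples biological replicates, but whether each came from a separate mouse is not given, so p-values here weigh differences only against the spread among these pools.

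Cohesin is a ring of 2 SMC proteins closed by a kleisin and bound by a STAG subunit, and it holds sister chromatids together. Germ cells replace several mitotic subunits with meiotic ones, SMC1B for SMC1A, REC8 or RAD21L for RAD21, and STAG3 for STAG1 or STAG2. In mouse oocytes the meiotic rings are loaded before birth and must hold sisters together until ovulation, and shugoshin 2, encoded by Sgol2, protects them at centromeres in the first division. On this axis sit the HORMA-domain protein HORMAD1 and the lateral elements SYCP2 and SYCP3, which the transverse filament SYCP1 and the central element proteins SYCE1 and SYCE2 join into the synaptonemal complex in prophase of the first division. The complex is taken apart before oocytes begin to grow, so growing oocytes carry the transcripts after the structure itself has gone.

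Levels are in FPKM, which counts sequenced fragments relative to transcript length and to the mapped reads of the sample. Pabpn1 itself checked the labels, at 21.8 to 33.4 FPKM (WT) against 0.595 to 1.37 FPKM (Pabpn1-null). The summed FPKM was 676077 to 739244 in WT and 597103 to 638185 in Pabpn1-null samples, and rank correlations over the rows tested were 0.955 to 0.974 among WT and 0.970 to 0.982 among Pabpn1-null samples, the pairs that held WT replicate 3 being the lowest. Of 12 oocyte markers, 12 were above 1 FPKM, with sums of 18936 to 22073 FPKM (WT) against 22266 to 23964 FPKM (Pabpn1-null). They did not move together, since 7 were called higher and 3 lower (Oosp1, Figla and Dppa3). The 12 granulosa markers summed to 31.9 to 38.8 and 31.5 to 44.3 FPKM. Amh, Foxl2, Fst, Inhba and Inhbb were under 1 FPKM in every sample. Cyp19a1, Inha, Nr5a2, Fshr and Kitl were above 1 FPKM in every sample. Cyp19a1 was at 9.25 to 20.3 FPKM in WT and was called lower in Pabpn1-null oocytes, where Inha was at 5.81 to 18.8 FPKM and was called higher. Sums of the 10 theca and stroma markers were 2.44 to 3.67 and 1.88 to 2.02 FPKM. Star was called higher (0.273 to 1.15 FPKM by mean) and Nr2f2 lower (0.815 to 0.226 FPKM by mean). Sums of the 7 endothelial markers were 8.45 to 9.81 and 10.0 to 13.9 FPKM. Cdh5 and Emcn were at 0 and Tie1 was called higher (0.185 to 1.26 FPKM by mean). Sums of the 9 blood and immune markers were 2.54 to 4.18 and 4.56 to 7.19 FPKM. Hba-a1, Hbb-b1 and Cd52 were at 0 and Laptm5 was called higher (0.796 to 3.33 FPKM by mean). Star and Tie1 exceeded 1 FPKM only in Pabpn1-null samples and Nr2f2 only in WT. Each of them thus entered the test through the genotype where it was higher. The part of these cell types in the results was not tested. In pooled oocytes, fewer cells with a transcript and less of it per cell cannot be told apart.

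Of 6 tested transcripts of the axis and synaptonemal complex, 3 were called lower in Pabpn1-null oocytes. Of 3 tested transcripts of the cohesin group, 0 were called. The difference between these 2 groups was not tested, and 48.1% of all rows tested were called in either direction. Sycp3 fell to 51.7% and Syce2 to 74.2% of the WT level, and Hormad1 was lower with a WT group that did not hold together. The 12523 rows that exceeded 1 FPKM somewhere among the 6 samples were tested with limma on log2(FPKM + 1), where SE is the standard error of the log2 change, with p-values corrected by Benjamini and Hochberg across them and a call at an adjusted p under 0.05. Of the 10 genes, 9 were tested and Rec8 was not. Each of the 9 was above 1 FPKM in at least 1 sample of each genotype, though the WT mean of Stag3 was 0.903 FPKM. Among them 3 (33.3%) were called lower and 0 higher (3 and 1 where p was taken unadjusted, under 0.05), against 20.2% of all rows tested called lower, 27.9% called higher and 48.1% called in either direction. The genotypes did not overlap for 3 of the 9, 1 above and 2 below WT, whereas this held for 58% of all rows (33.3% above and 24.7% below). The median log2 change was 3.3e-04 over the 9 genes and 0.09 over all rows tested. Without Pabpn1-null replicate 1 only Sycp3 of the 9 was called lower, and without Pabpn1-null replicate 2 Sycp2 was called higher. Of all calls 57.9% were higher in the deposited scaling, 70.9% with the same total FPKM in each sample, 49.5% with median-of-ratios scaling and 48.9% after quantile normalization, and the median log2 change of all rows in these 3 rescalings was 0.25, -1.3e-04 and -0.01. Because 1 is added before taking logs, changes of weakly expressed genes come out too small.

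**Figure D1:**
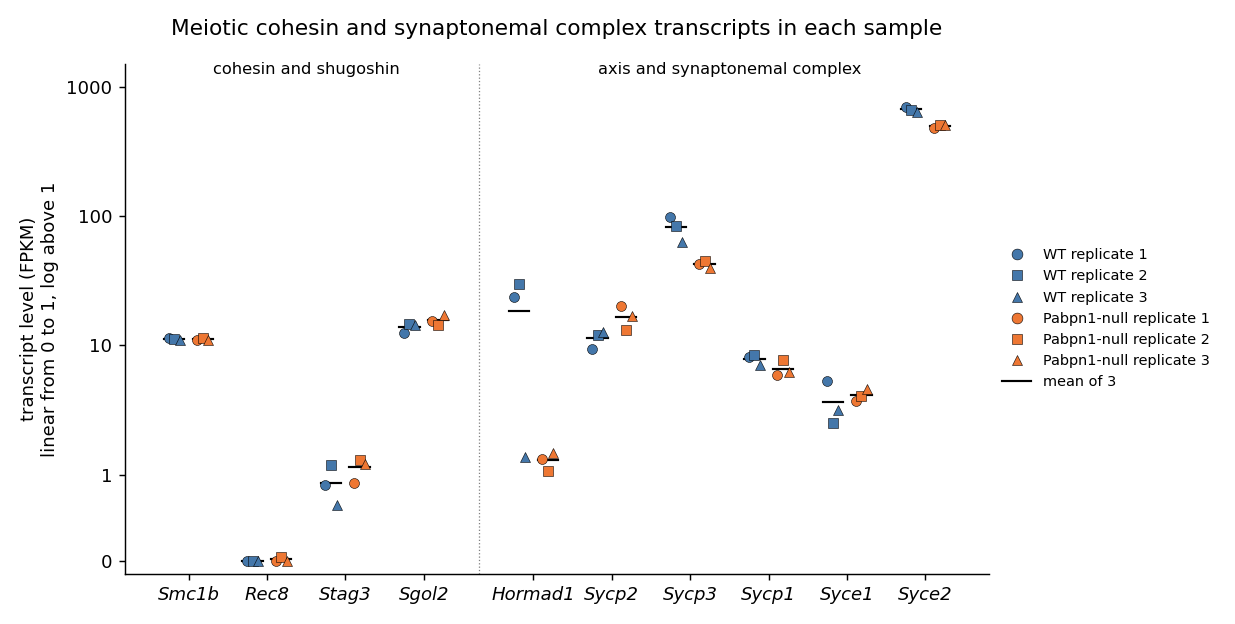
Transcript level in FPKM of the 10 genes in each of the 6 samples (axis linear from 0 to 1 and logarithmic above 1; WT in blue, Pabpn1-null in orange, bars are means of 3). Sycp3 and Syce2 are lower in every Pabpn1-null sample, Smc1b sits at 10.9 to 11.4 FPKM in all samples, and Hormad1 in WT replicate 3 lies with the Pabpn1-null samples.

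Within WT oocytes these transcripts spanned a wide range. From the highest mean to the lowest the order was Syce2, Sycp3, Hormad1, Sgol2, Sycp2, Smc1b, Sycp1, Syce1, Stag3 and Rec8, and the highest tested mean was 739 times the lowest. Syce2 ranked 186 and Sycp3 1534 among all 23235 rows by WT mean. The WT samples overlapped between the neighbors Hormad1 and Sgol2, Sgol2 and Sycp2, and Sycp2 and Smc1b, while Sgol2 lay above Smc1b in every sample and the other neighbors were separate. Hormad1 owed its place to WT replicates 1 and 2, and in WT replicate 3, at 1.37 FPKM, it lay below Syce1 at 3.18 FPKM. In Pabpn1-null oocytes Hormad1 lay between Syce1 and Stag3 by mean and overlapped Stag3, and Sycp2 and Sgol2 overlapped just above Smc1b.

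SMC1B, the meiotic SMC subunit, had the steadiest transcript of the set. Smc1b, on chromosome 15 (mm9, as for every position given here) from 84895121 to 84962387 on the minus strand, was at 11.3, 11.2 and 10.9 FPKM (WT) against 11.01, 11.4 and 11.1 FPKM (Pabpn1-null). The samples of both genotypes interleaved within 10.9 to 11.4 FPKM. The Pabpn1-null mean was 100.03% of the WT mean, with a standard error of 0.16 on the log2 scale (limma adjusted p = 0.999), and the coefficient of variation was 1.73% in WT and 1.94% in Pabpn1-null oocytes. This equality holds for FPKM as deposited: the log2 change was 0.18 with the same total FPKM in each sample, -0.11 with median-of-ratios scaling and -0.18 after quantile normalization, and none of these was called.

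Sgol2 encodes the shugoshin that shields centromeric cohesin from separase. It lies on chromosome 1 from 58052815 to 58082743 on the plus strand, and was at 12.5, 14.7 and 14.4 FPKM (WT) against 15.3, 14.3 and 17.1 FPKM (Pabpn1-null). The genotypes overlapped, and the log2 change of 0.15 (SE 0.16) did not pass (limma adjusted p = 0.449). Of the 4939 exonic bases of Sgol2, 2455 are shared with Kctd18 on the opposite strand. The methods name no strand-specific step, so reads of both genes cannot be told apart there, which leaves the level uncertain. Kctd18 was at 2.71 to 5.36 FPKM (WT) against 4.501 to 5.83 FPKM (Pabpn1-null) and was not called.

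Transcripts of the meiotic STAG subunit and of the kleisin REC8 were barely represented. Stag3, on chromosome 5 from 138721468 to 138753621 on the plus strand, was at 0.878, 1.18 and 0.652 FPKM (WT) against 0.900, 1.31 and 1.21 FPKM (Pabpn1-null), with a log2 change of 0.17 (SE 0.19, limma adjusted p = 0.471). Rec8, on chromosome 14 from 56236874 to 56244232 on the plus strand, was listed at 0 in every WT sample and in Pabpn1-null replicates 1 and 3, and at 0.0443 FPKM in Pabpn1-null replicate 2. The reads behind these values are not known from the table, so a listed 0 is not shown to be an absent transcript, and no fold is given.

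Of the 5 groups of paralogs or partners examined, the kleisins had the largest shift in relative abundance. Rad21l, which encodes the meiotic kleisin of early prophase, was at 1.02, 1.15 and 1.72 FPKM (WT) against 8.17, 5.96 and 6.56 FPKM (Pabpn1-null). Every Pabpn1-null sample was above every WT sample, the Pabpn1-null mean was 5.31-fold the WT mean, and the log2 change was 1.78 (SE 0.20, limma adjusted p = 1.78e-04). Rad21, the mitotic kleisin, was at 26.0, 41.3 and 18.3 FPKM (WT) against 14.3, 12.1 and 14.4 FPKM (Pabpn1-null), and it fell to 47.8% of the WT level (log2 change -0.94, SE 0.26, limma adjusted p = 0.0130). WT replicate 2 was the highest for Rad21 and WT replicate 3 the lowest of the WT samples. Without Pabpn1-null replicate 2 the call of Rad21 was lost (limma adjusted p = 0.0629), as it was without the filter on low values (0.111).

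A share among paralogs, or among the partners Sycp2 and Sycp3, is not changed by a scaling factor common to the sample. For this reason 5 shares were compared between the genotypes. Rec8 and Rad21l together made up 3.80%, 2.71% and 8.58% of kleisin FPKM (Rec8, Rad21l and Rad21) in WT and 36.3%, 33.1% and 31.3% in Pabpn1-null oocytes. The means were 5.03% ± 3.12 and 33.6% ± 2.56 (SD, n = 3 samples each), a difference of 28.5 percentage points (two-sided exact permutation test, p = 0.1, which 3 against 3 samples cannot go below, and 0.167 adjusted over the 5 shares). Since Rec8 was listed at 0 in 5 of the samples, this share was nearly all Rad21l. Sycp3 made up 91.2%, 87.4% and 83.4% of Sycp2 and Sycp3 FPKM in WT and 67.9%, 77.4% and 70.1% in Pabpn1-null oocytes, a difference of -15.5 percentage points with the same exact p of 0.1. Sgol2 made up 48.8%, 46.5% and 49.8% of both shugoshin transcripts in WT and 38.1%, 37.3% and 39.3% in Pabpn1-null oocytes, a difference of -10.2 percentage points, also at an exact p of 0.1. For these 3 shares the genotypes did not overlap.

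**Figure D2:**
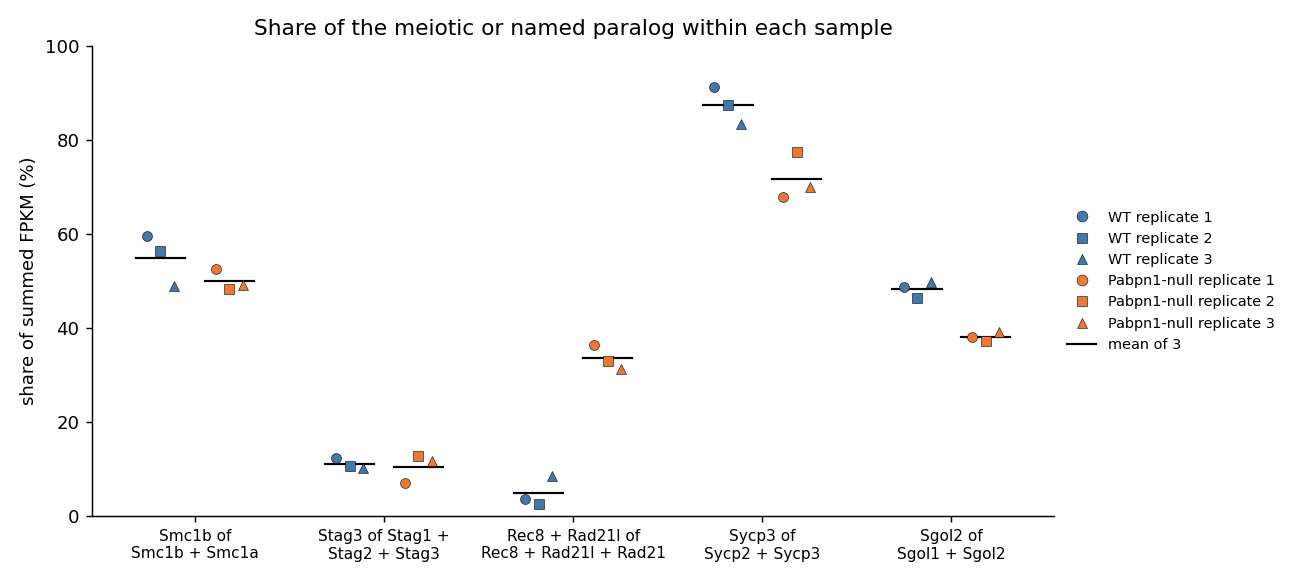
Share of summed FPKM (%) within each sample taken by the gene or genes named first under each column (WT in blue, Pabpn1-null in orange, bars are means of 3). The kleisin share is 2.71% to 8.58% in WT and 31.3% to 36.3% in Pabpn1-null samples, and the Smc1b and Stag3 shares overlap between the genotypes.

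The other 2 shares overlapped between the genotypes. Smc1b made up 54.99% ± 5.52 of both SMC1 transcripts in WT and 50.03% ± 2.27 in Pabpn1-null oocytes (SD, n = 3, exact permutation p = 0.3), and Stag3 made up 11.2% ± 1.16 and 10.6% ± 3.05 of the 3 STAG transcripts (SD, n = 3, exact permutation p = 0.9). The difference of the Stag3 share, -0.582 percentage points, was 0.0798 without WT replicate 1 and 1.15 without Pabpn1-null replicate 1. Sgol1, the paralog that protects mitotic centromeres, rose from 14.8 ± 1.91 to 25.1 ± 1.27 FPKM (SD, n = 3), a log2 change of 0.73 (limma adjusted p = 0.00444). Smc1a was at 9.25 ± 1.96 FPKM (WT) against 11.2 ± 1.16 FPKM (Pabpn1-null), and Stag1 and Stag2 had log2 changes of 0.52 and 0.29. Those of Smc1a, Stag1 and Stag2 did not pass the test (limma adjusted p = 0.280, 0.0593 and 0.352). Stag1 passed with the same total FPKM in each sample (limma adjusted p = 0.0282), without WT replicate 2 (0.0330) and without a trend in the variance (0.0439).

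SYCP3 builds the lateral element together with SYCP2. Sycp3, on chromosome 10 from 87922314 to 87935981 on the plus strand, was at 97.96, 84.1 and 63.2 FPKM (WT) against 42.3, 45.2 and 39.3 FPKM (Pabpn1-null). All Pabpn1-null values lay under the lowest WT value, and WT replicate 3 was the lowest of the WT samples. The log2 change was -0.92 (SE 0.17, limma adjusted p = 0.00218), and it was called lower under all 15 alternative settings, with log2 changes of -1.09 to -0.72. Of its 1264 exonic bases, 660 are shared with Chpt1 on the opposite strand, a gene called lower itself and at 1.13 to 4.37 FPKM over the 6 samples, so reads of both genes cannot be told apart there.
Sycp2, on chromosome 2 from 178079998 to 178142390 on the minus strand, had values of 9.42, 12.1 and 12.6 FPKM (WT) against 20.0, 13.2 and 16.8 FPKM (Pabpn1-null). The genotypes did not overlap, by a narrow margin between WT replicate 3 and Pabpn1-null replicate 2. Its log2 change of 0.50 (SE 0.20) did not pass (limma adjusted p = 0.0585). It passed with the same total FPKM in each sample (log2 change 0.69, limma adjusted p = 0.0191), among rows with a mean of at least 5 FPKM (0.0461) and without Pabpn1-null replicate 2 (0.0377). The log2 values of Sycp2 and Sycp3 had opposite signs, which held under each of the 3 rescalings, though only that of Sycp3 passed the test in the deposited scaling.

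The signal that directs cleavage and polyadenylation is shown for these genes because PABPN1 binds the tail added behind it and because the libraries were primed from that tail. The last 40 bases of the longest coding transcript with an annotated end in the basic set of GENCODE vM1 (mm9) were searched on the transcript strand for AATAAA and, where that was not found, ATTAAA. Of the 10 genes, 3 held AATAAA, 4 held ATTAAA and 3 held neither, against 60.3%, 14.7% and 24.996% of 11626 tested coding genes. Sycp3, which fell, and Syce1 and Stag3, which were not called, held AATAAA. Sycp2, Sycp1, Sgol2 and Rec8 held ATTAAA. Rec8 was not tested, so it is not part of the reference genes, and its window is not listed. Hormad1, Syce2 and Smc1b held neither within this window, which says only that these letters are not there. The 30-base windows run 5′ to 3′ in the sense of the transcript with the hexamer in capitals, and end at the annotated transcript end except that of Sycp2.
Sycp3, chr10:87935951-87935980, plus strand: cgattgtgtcAATAAAgatgatttaaattt
Syce1, chr7:147963128-147963157, minus strand: caagcaaAATAAAtgaaatttaagtctgca
Stag3, chr5:138753592-138753621, plus strand: ctttcAATAAAcatgttcagctatctcata
Sycp2, chr2:178080011-178080040, minus strand: gcaaacATTAAAgccatgggcccaaacaaa
Sycp1, chr3:102622422-102622451, minus strand: ttttctttattATTAAAatattttgaatgc
Sgol2, chr1:58082714-58082743, plus strand: atacaaATTAAAaaaagttttaaagattta

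Of the central region, Syce2 fell and Sycp1 and Syce1 were not called. Syce2, on chromosome 8 from 87396010 to 87412120 on the plus strand, encodes a central element protein that assembles with TEX12. It was at 702, 661 and 639 FPKM (WT) against 476, 502 and 507 FPKM (Pabpn1-null). No sample of one genotype reached the other, and the coefficient of variation was 4.83% in WT and 3.36% in Pabpn1-null oocytes. The log2 change was -0.43 (SE 0.11, limma adjusted p = 0.00952). The call was lost with the same total FPKM in each sample (log2 change -0.23, limma adjusted p = 0.0603) and without Pabpn1-null replicate 1 (limma adjusted p = 0.0643). After quantile normalization, which gives all samples the same distribution of levels, the log2 change was 0.02 (limma adjusted p = 0.903). Gcdh lies across Syce2 on the opposite strand with 0 exonic bases in common.
Tex12, the partner of Syce2 in the central element, had the clearer fall of that pair. It was at 84.2, 92.1 and 98.8 FPKM (WT) against 35.9, 32.0 and 38.6 FPKM (Pabpn1-null), or 38.7% of the WT level (log2 change -1.35, SE 0.14, limma adjusted p = 1.19e-04). Sycp1, the transverse filament that spans the complex, was at 8.07, 8.39 and 6.98 FPKM (WT) against 5.92, 7.67 and 6.17 FPKM (Pabpn1-null), on chromosome 3 from 102622422 to 102740023 on the minus strand. Its samples overlapped between the genotypes (log2 change -0.22, SE 0.18, limma adjusted p = 0.335). Its level is uncertain because only uniquely mapped reads were used. Reads that also match a row named Sycp1-ps1, by its name a pseudogene, may have been dropped. Syce1, on chromosome 7 from 147963128 to 147973753 on the minus strand, was at 5.25, 2.51 and 3.18 FPKM (WT) against 3.69, 4.04 and 4.57 FPKM (Pabpn1-null), all within the range of WT (log2 change 0.17, SE 0.24, limma adjusted p = 0.564). WT replicate 1 set the upper end of that range.

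**Figure D3:**
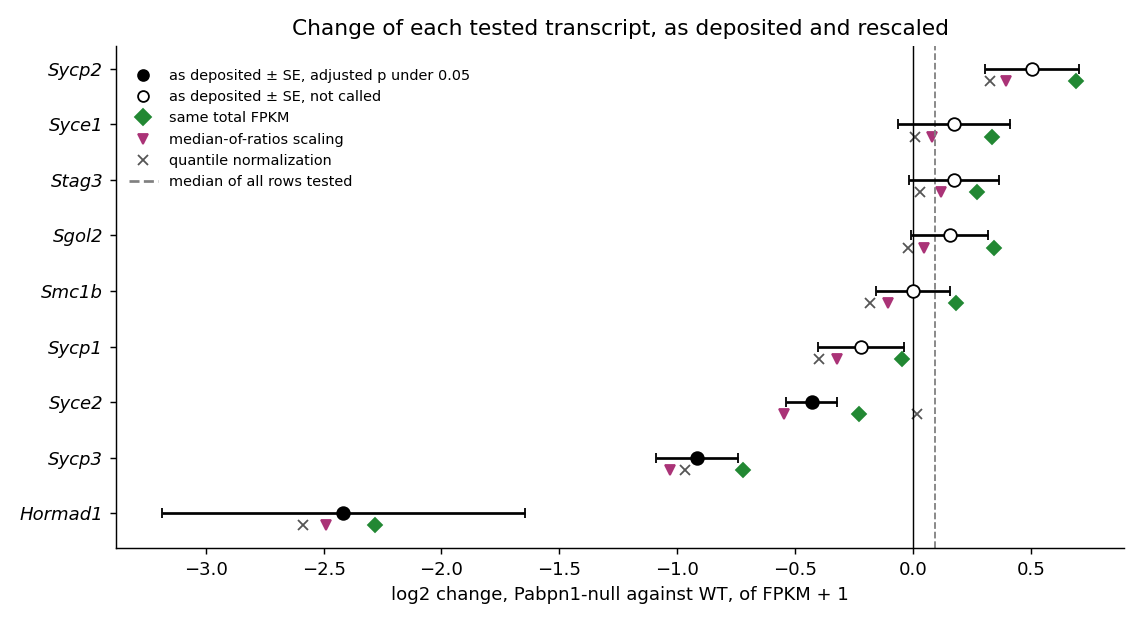
Log2 change of FPKM + 1 in Pabpn1-null against WT oocytes for the 9 tested genes (circles with standard error, filled where the adjusted p is under 0.05), with the values after 3 rescalings and the median of all rows tested as a dashed line. Sycp3 and Hormad1 lie left of 0 under every scaling, Syce2 moves from -0.43 to 0.02 after quantile normalization, and the error of Hormad1 is the widest.

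Hormad1 had the log2 change farthest from 0 of the set and the least uniform control group. HORMAD1 marks unsynapsed chromosome axes and is removed from them by TRIP13 once they synapse. Hormad1, on chromosome 3 from 95363599 to 95391593 on the plus strand, was at 23.5, 29.9 and 1.37 FPKM (WT) against 1.33, 1.07 and 1.47 FPKM (Pabpn1-null). WT replicate 3 lay among the Pabpn1-null samples and at 5.14% of the mean of the other 2 WT samples, and the Pabpn1-null mean was at 4.81% of that mean. The log2 change was -2.42 with an SE of 0.77 (limma adjusted p = 0.0265). The call was lost without WT replicate 1 or 2 (limma adjusted p = 0.118 and 0.127), without Pabpn1-null replicates 1, 2 or 3 (0.0718, 0.102 and 0.0556), with robust estimation (0.160) and without the filter (0.224), while without WT replicate 3 the log2 change was -3.59 (limma adjusted p = 2.85e-05).
Of the expressed genes around Hormad1, none had so large a difference. Golph3l, a Golgi phosphoprotein paralog that starts 29282 bases beyond the start of Hormad1, was at 19.5, 26.0 and 14.2 FPKM (WT) against 39.9, 37.2 and 42.0 FPKM (Pabpn1-null) and was called higher (log2 change 1.00). Ensa, an inhibitor of the phosphatase PP2A in M phase, was at 18.8, 18.9 and 20.3 FPKM (WT) against 32.8, 35.3 and 28.7 FPKM (Pabpn1-null) and was also called higher (0.70). WT replicate 3 was at 62.2% and 108% of the other WT samples for these 2 genes. Mcl1, an inhibitor of apoptosis farther along, came nearer to the pattern, at 7.67, 9.02 and 3.53 FPKM (WT) against 4.03, 3.17 and 3.31 FPKM (Pabpn1-null), with WT replicate 3 at 42.3% of the other WT samples, and it was not called (log2 change -0.71, limma adjusted p = 0.0641). On the other side, Arnt, a partner of the aryl hydrocarbon receptor, was called higher (0.63), and Ctss and Ctsk were at most 0.446 FPKM. Gm4349, beyond Arnt, was at 2.49, 1.64 and 0.604 FPKM (WT) against 1.38, 1.70 and 2.47 FPKM (Pabpn1-null), with WT replicate 3 at 29.2% of the other WT samples, and was not called.
Among 7878 rows with a mean of at least 5 FPKM, those closest to Hormad1 were Bfsp1, Gm11968 and Gsto2, by Euclidean distance over the 6 samples on the log2(FPKM + 1) scale after subtraction of the WT mean (distances 1.44, 1.46 and 1.63). Bfsp1, a lens filament protein, was at 19.8 and 27.3 FPKM in WT replicates 1 and 2 and was listed at 0 in the other 4 samples. Gm11968 was at 19.7, 22.01 and 3.79 FPKM (WT) against 1.59 to 3.09 FPKM (Pabpn1-null). Rows in which 1 sample of a genotype and all samples of the other were under 25% of the lower of the remaining 2 samples, themselves at 5 FPKM or more, numbered 11 for WT replicate 3, 0 for WT replicate 1, 0 for WT replicate 2, and 2, 6 and 1 for Pabpn1-null replicates 1 to 3. Hormad1 was the only one of the 10 genes in any of these groups of rows.

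**Figure D4:**
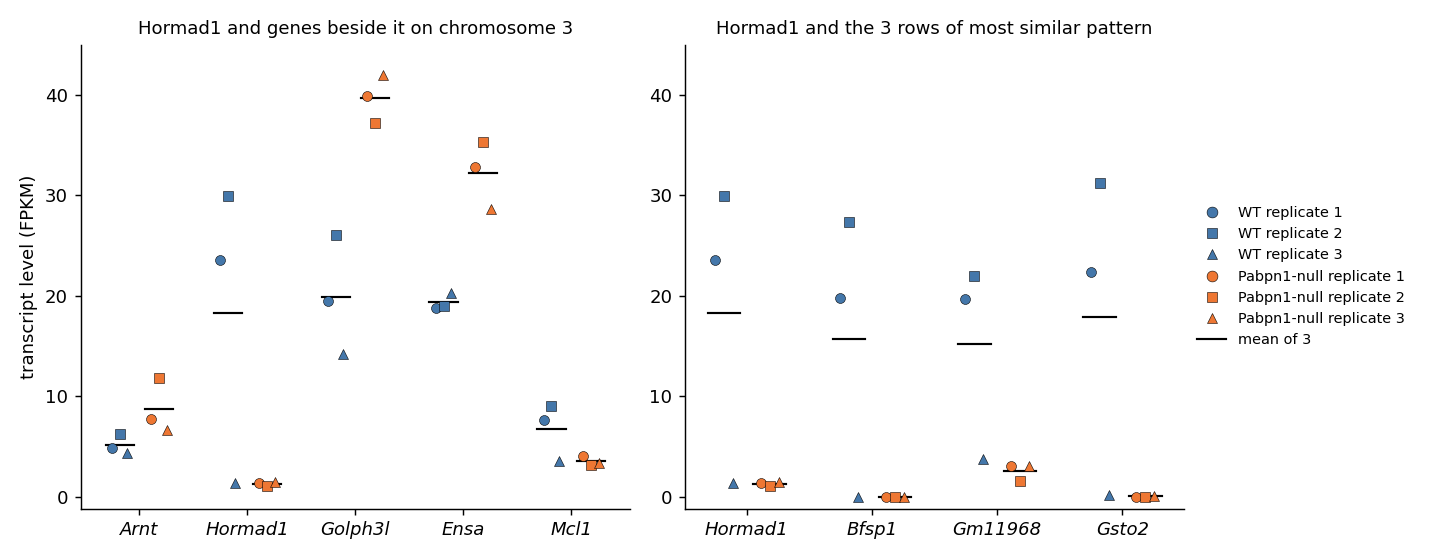
FPKM in each sample of Hormad1 and expressed genes beside it on chromosome 3 (left) and of Hormad1 with the 3 rows of most similar pattern (right), WT in blue, Pabpn1-null in orange, bars are means of 3. WT replicate 3 (blue triangle) lies with the Pabpn1-null samples for Hormad1, Bfsp1 and Mcl1, and just above them for Gm11968 and Gsto2. For Golph3l and Ensa it lies below them.

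By the same measure the rows closest to Sycp2, which had the highest log2 change of the 9 tested genes, were Odf2l, 1810063B05Rik and C87499 (distances 0.16, 0.17 and 0.18). Odf2l was at 6.50, 7.37 and 8.56 FPKM (WT) against 12.6, 8.99 and 10.9 FPKM (Pabpn1-null). As for Sycp2, WT replicate 1 was the lowest sample and Pabpn1-null replicate 1 the highest.

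Around the 10 genes, 79 further genes of meiotic prophase and cohesion were listed in 6 groups, of which 73 had a row and 63 were tested. Of these, 21 were called higher and 15 lower, where 27.9% and 20.2% of all rows tested were, the shares against which each group count that follows is to be read. The remaining core cohesin subunits gave 1 higher (Rad21l) and 1 lower (Rad21) of 6, with a median log2 change of 0.27. Smc3, the partner of either SMC1 in the ring, was at 27.3 ± 4.10 FPKM (WT) against 32.5 ± 2.36 FPKM (Pabpn1-null) (SD, n = 3, log2 change 0.25) and was not called.
Of 16 tested regulators of cohesin, 8 were higher and 4 lower (median log2 change 0.39), where 48.1% of all rows tested were called in either direction. Pds5a, among those called higher, was at 0.823 to 0.893 FPKM in WT and passed the filter only through Pabpn1-null samples. Mau2, a subunit of the cohesin loader, went from 7.67 to 18.4 FPKM, and Esco1, an acetyltransferase of SMC3, from 36.3 to 72.0 FPKM, with log2 changes of 1.16 and 1.00. PP2A is the phosphatase that shugoshin recruits to keep cohesin uncleaved, and its catalytic subunit Ppp2ca and its regulatory subunit Ppp2r5c fell to 42.7% and 44.98% of their WT levels (log2 changes -1.15 and -1.09, limma adjusted p = 0.00221 and 0.00128). Not every PP2A gene of the list was lower, since Ppp2r1a and Ppp2r5a were called higher.

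Of 9 tested further genes of the axis and synaptonemal complex, 4 were lower and Tex19.1 was higher, with a median log2 change of -0.39. Besides Tex12, Ccnb1ip1, a crossover factor, fell to 30.01% of the WT level (log2 change -1.40, limma adjusted p = 7.47e-04). Tex11, a germ cell protein of meiotic recombination, had a log2 change of -1.0, a call that did not hold when WT replicate 2, Pabpn1-null replicate 1 or Pabpn1-null replicate 2 was left out (limma adjusted p = 0.0602, 0.0617 and 0.0681) and without the filter (0.115). Tex19.1, which restrains retrotransposons in mouse germ cells, was 2.17-fold higher. Hormad2, the paralog of Hormad1, and Trip13 were not called, and Spata22 was listed at 0 in every sample.
Of 18 tested recombination genes, 4 were higher and 4 were lower (median log2 change -0.05). Mnd1 and Psmc3ip, whose proteins form a heterodimer that helps the recombinase DMC1 pair homologous strands, both fell, Psmc3ip from 112 ± 15.5 to 48.4 ± 4.82 FPKM and Mnd1 from 37.9 ± 6.55 to 15.3 ± 1.58 FPKM (SD, n = 3). Their log2 changes were -1.19 and -1.25 (limma adjusted p = 2.77e-04 and 4.39e-04). 2410076I21Rik, an older name of Rec114, which is needed for meiotic double-strand breaks, had a log2 change of -1.09. Tex15, needed for meiotic recombination in male mice, was 2.16-fold higher, a call lost without Pabpn1-null replicate 1 (limma adjusted p = 0.0567) and without the filter (0.0921).

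**Figure D5:**
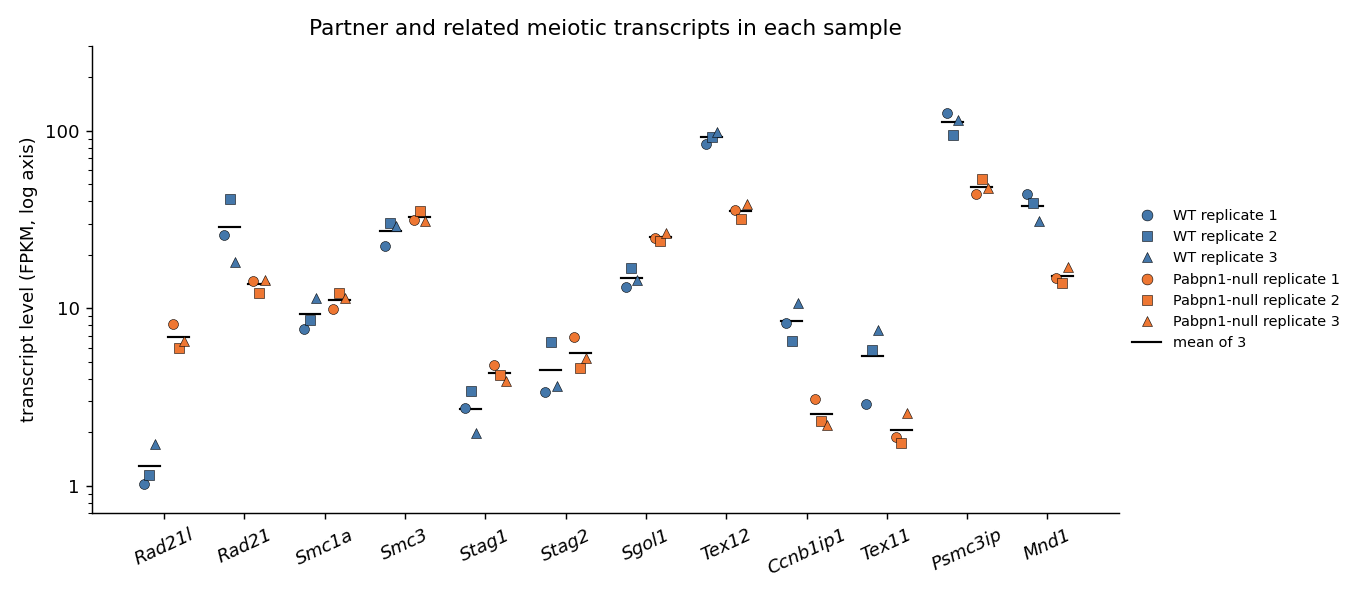
Transcript level (FPKM, log axis) in each sample of paralogs and partners of the 10 genes and of related meiotic genes (WT in blue, Pabpn1-null in orange, bars are means of 3). Rad21l, Smc3, Stag1 and Sgol1 are above the WT range in every Pabpn1-null sample. Rad21, Tex12, Ccnb1ip1, Tex11, Psmc3ip and Mnd1 are below it, and Smc1a and Stag2 overlap.

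Of 7 tested genes that tether telomeres to the nuclear envelope in prophase, 3 were higher and Terf1, a telomere repeat binding protein, was lower (log2 change -0.74), and the median log2 change was 0.15. Cdk2, the kinase found at meiotic telomeres, went from 17.0 to 33.4 FPKM (log2 change 0.94). Sun1, the inner nuclear membrane anchor, had a log2 change of 0.72 (limma adjusted p = 0.0341), a call that did not hold when WT replicate 1 (0.0528), WT replicate 3 (0.0853), Pabpn1-null replicate 1 (0.0765) or Pabpn1-null replicate 2 (0.141) was left out, without the filter (0.171), with median-of-ratios scaling (0.05001) and after quantile normalization (0.0763). Its paralog Sun2, also among those called higher, went from 0.213 to 1.16 FPKM (log2 change 0.83). Sun2 was at 0.130 to 0.295 FPKM in WT and passed the filter only through Pabpn1-null samples.
Of 7 tested genes of germ cell identity and meiotic entry, 4 were higher and Figla, a transcription factor of the primordial follicle, was lower (53.4% of the WT level, log2 change -0.90), with a median log2 change of 0.81. Ddx4, the germ cell helicase, and Dazl, an RNA-binding translation regulator, were 2.69-fold and 2.07-fold higher, with log2 changes of 1.47 and 1.06. Sohlh1, a transcription factor of early oocytes, was at 10.1, 1.77 and 3.31 FPKM (WT) against 20.3, 19.4 and 11.3 FPKM (Pabpn1-null) (log2 change 1.78, limma adjusted p = 0.00806), and its call was lost without the filter (0.114). Stra8, which starts the meiotic program, was at most 0.26 FPKM in any sample.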

How the data were processed

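RNA was sequenced from 6 samples of 10 growing oocytes with Smart-seq2, which primes cDNA from the poly(A) tail. Per the authors' methods, reads were trimmed to 50 bases, aligned to mm9 with TopHat2 2.1.1, and uniquely mapped reads were assigned to UCSC gene models with Cufflinks 2.2.1. The deposited values are FPKM with 1 added, which was subtracted. The methods also state normalization to ERCC spike-in RNA; no ERCC row is in the table, and whether the deposited values carry that step is not settled, so they were used as they are. The study gives total reads and mapping rates for each sample, with the fewest reads in WT replicate 1. The reads behind each value are not given, and no strand-specific step is named. The levels are of transcripts captured through their tails.

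Rows above 1 FPKM in at least 1 sample were tested on log2(FPKM + 1) with limma 3.58.1 (R 4.3.3, trend, genotype only), and shares with exact permutation tests in scipy 1.17.1. The limma step was tested on simulated data. Alternatives were another pseudocount, no filter or a mean of at least 5 FPKM, 3 rescalings, leaving out each sample, a replicate block, and eBayes without trend or robust. Named genes were the 10 genes, their partners in the shares, up to 4 called genes with the largest change in each related list, and the 3 rows of most similar pattern to the gene with the largest fall and the gene with the largest rise; the remaining genes named were chosen after their values were seen. The genes and lists were chosen with earlier results of these data known. Gene positions, exon overlaps and sequences came from the mm9 reference genome with GENCODE vM1, whereas the FPKM rest on UCSC gene models. Deviations of same-numbered replicates gave no sign of pairing, which does not exclude it.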

Additional observations from a re-analysis of the deposited data

How the results depend on the processing

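Over 15 alternative settings Sycp3 was called lower in every one, with log2 changes of -1.09 to -0.72. Of the 10 genes, 1 (Sycp2) was called higher among rows with a mean of at least 5 FPKM, with the same total FPKM in each sample and without Pabpn1-null replicate 2, and leaving out each sample in turn gave 0 to 1 called higher and 1 to 3 called lower. Hormad1 lost its call in 7 of the settings and Syce2 in 3. Log2 values changed sign for Sgol2 (-0.023) and Syce2 (0.015) after quantile normalization, and for Smc1b with median-of-ratios scaling (-0.11) and quantile normalization (-0.18). Without 1 sample, Smc1b ranged from -0.014 to 0.010 and Syce1 from -0.0070 to 0.41. The difference of the Stag3 share ranged from -1.74 to 1.15 percentage points, that of Smc1b from -8.01 to -2.63, of the meiotic kleisins from 27.2 to 30.3, of Sycp3 from -18.4 to -13.6 and of Sgol2 from -11.1 to -9.42. The cause was not tested. Of 26 further genes followed, 20 kept direction and call in every setting that gave them a value; genes with a mean under 5 FPKM, such as Rad21l and Sun2, had 14 settings.

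Over all rows tested 3491 transcripts were called higher and 2535 lower. Leaving out 1 sample gave 2528 to 3402 higher and 1737 to 2750 lower, and the same total FPKM gave 4327 and 1778. With the replicate number as a block, 0 of the 10 genes were called higher and 3 lower, and 3478 and 2528 of all rows. Deviations of same-numbered samples correlated at -0.0135, -0.0149 and 0.0598, and those of the other pairs at -0.0603 to 0.06. This gives no sign that the numbers pair the samples, but it cannot exclude a shared litter or preparation.

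Without read counts for each gene, the precision of low values such as those of Rec8 and Stag3 was not estimated.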
